A study of Homo sapiens with 6 samples.

Results

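H3K27ac, the acetylation of lysine 27 on histone H3, was profiled by CUT&Tag in MV4-11 cells with and without knockdown of ANP32B, and the peak lists of these 2 libraries are described here. All peaks of the libraries MV4-11 NC and MV4-11 sh-ANP32B on chromosomes 1 to 22 and X were taken, which gave 24491 and 22112 peaks, or 46603 of the 96832 peaks in the 4 lists of the series. MV4-11 is an acute myeloid leukemia (AML) line with a KMT2A fusion and a FLT3 internal tandem duplication. NC cells carried a control hairpin (their treatment is given as untreated) and sh-ANP32B cells a hairpin against ANP32B. Both were made with lentivirus and selected with puromycin, so each is a selected cell population, and which of the study's ANP32B hairpins was used for CUT&Tag is not given. The study merged replicates before it called peaks. With 1 merged library in each group, no difference below has a replicate check, no test was possible, and the 95% intervals (Wilson for shares, Poisson for ratios of peak numbers) cover counting error only. The other line of the study, Kasumi-1, is an AML line with a RUNX1::RUNX1T1 fusion and is used only for contrast.

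H3K27ac is laid down by the acetyltransferases EP300 and CREBBP and removed by histone deacetylases. It marks active promoters, where it flanks the nucleosome-depleted start of transcription, and active enhancers, which in myeloid cells are bound by factors such as PU.1 (SPI1), C/EBP, RUNX and AP-1 proteins. ANP32B belongs to the acidic nuclear phosphoproteins, a family that includes members of the INHAT complex, which binds histones and masks their tails from acetyltransferases.

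The promoters and peaks that follow are shown because the results below turn on them. The first group holds RefSeq promoters (GRCh38.p14, 250 bases before to 50 bases after the start, on the strand of the gene) of genes marked in NC but not in sh-ANP32B (CEBPA and CSF3R), or with more bases under peaks in sh-ANP32B (NFKB2 and STAT5A). CEBPA lies at chr19:33302485-33302784 on the minus strand, CSF3R at chr1:36482864-36483163 on the minus strand, NFKB2 at chr10:102394328-102394627 on the plus strand and STAT5A at chr17:42287189-42287488 on the plus strand. Capitals mark matches on either strand to the letters of 5 motifs, namely TGANTCA (AP-1), TTGCNNAA (C/EBP), GAGGAAGT (ETS), TGTGGTT (RUNX) and GGGCGG (SP/KLF).
CEBPA: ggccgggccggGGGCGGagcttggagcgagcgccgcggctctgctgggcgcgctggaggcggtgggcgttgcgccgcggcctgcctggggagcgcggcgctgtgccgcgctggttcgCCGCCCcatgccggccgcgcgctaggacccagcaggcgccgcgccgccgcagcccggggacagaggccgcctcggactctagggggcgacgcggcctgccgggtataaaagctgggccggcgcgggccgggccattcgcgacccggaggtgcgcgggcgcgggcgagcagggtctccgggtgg
CSF3R: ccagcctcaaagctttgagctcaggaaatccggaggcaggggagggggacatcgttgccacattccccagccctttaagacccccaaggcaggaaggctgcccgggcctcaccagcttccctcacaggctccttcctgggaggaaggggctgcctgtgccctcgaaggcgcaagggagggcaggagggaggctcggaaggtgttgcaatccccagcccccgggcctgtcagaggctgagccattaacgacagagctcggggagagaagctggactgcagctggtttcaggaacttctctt
NFKB2: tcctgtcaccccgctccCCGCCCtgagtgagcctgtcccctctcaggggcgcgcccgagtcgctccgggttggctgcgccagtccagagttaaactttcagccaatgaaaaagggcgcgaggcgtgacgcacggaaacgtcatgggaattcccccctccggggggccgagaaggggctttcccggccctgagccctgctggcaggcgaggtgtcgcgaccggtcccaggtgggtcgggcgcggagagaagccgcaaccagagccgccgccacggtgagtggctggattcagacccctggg
STAT5A: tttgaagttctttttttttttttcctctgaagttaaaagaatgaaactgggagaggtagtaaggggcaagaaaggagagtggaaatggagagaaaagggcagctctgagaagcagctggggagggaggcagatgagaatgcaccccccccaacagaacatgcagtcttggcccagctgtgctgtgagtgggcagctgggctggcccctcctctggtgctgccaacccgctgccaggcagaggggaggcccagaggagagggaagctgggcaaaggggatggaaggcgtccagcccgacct
Where a gene has several RefSeq promoter entries, the one most covered by peaks was printed. NC peaks decided this for CEBPA and CSF3R, and sh-ANP32B peaks for NFKB2 and STAT5A. The coverage given next therefore follows in part from that choice. The NFKB2 and STAT5A entries lie at other starts than the canonical ones used for their base counts below. All 300 bases of the CEBPA and CSF3R promoters were under an NC peak and 0 under a sh-ANP32B peak. All 300 bases of the NFKB2 promoter were under a peak in both libraries, and the STAT5A promoter had 54 bases under a peak in NC and 300 in sh-ANP32B. The CEBPA promoter had a GC content of 80.7% with 50 CpG dinucleotides and the CSF3R promoter 62.7% with 9. Over 27195 RefSeq promoters of the same length, 44.7% held the SP/KLF letters, 10.5% the C/EBP letters, 7.73% the AP-1 letters, 4.29% the RUNX letters and 2.54% the ETS letters.

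The second group holds the central 300 bases (hg38, plus strand) of peaks outside promoters that were present in NC and lost in sh-ANP32B. They lie in intron 4 of MRTFA (chr22:40436415-40436714) and in intron 1 of ROR2 (chr9:91899121-91899420), and both peaks are among the 5 widest of their kind.
lost peak in MRTFA: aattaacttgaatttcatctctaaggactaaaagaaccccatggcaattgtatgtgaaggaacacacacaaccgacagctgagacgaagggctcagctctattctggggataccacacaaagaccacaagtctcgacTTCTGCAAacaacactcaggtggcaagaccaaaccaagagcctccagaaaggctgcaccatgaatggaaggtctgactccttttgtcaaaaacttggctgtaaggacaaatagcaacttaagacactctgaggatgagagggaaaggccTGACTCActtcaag
lost peak in ROR2: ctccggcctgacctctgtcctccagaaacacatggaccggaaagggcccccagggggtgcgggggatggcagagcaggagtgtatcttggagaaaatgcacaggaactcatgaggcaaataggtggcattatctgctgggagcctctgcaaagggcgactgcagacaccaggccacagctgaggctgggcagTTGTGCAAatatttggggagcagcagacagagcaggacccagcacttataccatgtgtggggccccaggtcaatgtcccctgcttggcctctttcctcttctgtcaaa
The MRTFA centre held 1 AP-1 and 1 C/EBP match, and the ROR2 centre 1 C/EBP match. Over all 17302 NC peaks outside coding promoters, the central 300 bases held the C/EBP letters in 18.9%, the AP-1 letters in 15.2%, the SP/KLF letters in 10.2%, the RUNX letters in 9.12% and the ETS letters in 5.05%. A match is a description of the letters and not evidence of binding.

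H3K27ac peaks were fewer and narrower in MV4-11 sh-ANP32B than in MV4-11 NC. The number of peaks was 0.903 times that of NC (95% interval 0.887 to 0.919), and the bases under peaks went from 27.9 to 23 Mb, a ratio of 0.825. The median peak width was 815 bases in NC and 742 bases in sh-ANP32B. Peaks of at least 4000 bases numbered 559 in NC and 381 in sh-ANP32B, whereas peaks under 500 bases made up 25.3% of the NC list and 29.6% of the sh-ANP32B list. Of the NC peaks, 29.1% (7121) overlapped no sh-ANP32B peak by even 1 base and are called lost, and 17.7% (3904) of the sh-ANP32B peaks overlapped no NC peak and are called gained. The ratio was below 1 on every chromosome, from 0.832 on chromosome 22 to 0.956 on chromosome 13 for the number of peaks and from 0.774 on chromosome 22 to 0.863 on chromosome 15 for covered bases. In Kasumi-1 the ratios were 1.05 for the number of peaks and 1.03 for covered bases, and 8.97% of NC peaks were lost.

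Labels were checked against marker genes by asking whether a peak lay in the promoter window, which ran from 2500 bases before to 2500 bases after the canonical start of transcription. Of 11 myeloid markers, 7 had a promoter peak in MV4-11 NC and 4 in sh-ANP32B. SPI1, the gene of PU.1, had 3008 bases under peaks in NC and 3127 in sh-ANP32B, and MEIS1, a cofactor of HOX proteins, had 3337 and 3123. CEBPA, CSF3R and FLT3 had a peak in NC only, and CD33, CSF1R, MPO and ITGAM had none in either library. Single markers of other lineages were also marked, namely CD79A of B cells (1127 and 1128 bases), NKG7 of T and NK cells (1613 and 1005 bases) and KLF1 of erythroid cells (248 bases in NC, from a peak of 2556 bases that reached into the window and overlapped a sh-ANP32B peak beyond it). None of the 3 genes written as Kasumi-1 markers (RUNX1T1, POU4F1, KIT) had a peak in any of the 4 libraries. Several markers were more widely covered in Kasumi-1 NC than in MV4-11 NC, among them HOXA9 (4335 against 769 bases), FLT3 (2028 against 299) and CD33 (1464 against 0). HOXA9 is known to be active in cells with a KMT2A fusion and FLT3 is mutated in MV4-11. The HOXA9 and FLT3 values thus differ from what the line labels would lead to, and a reason was not tested. LYZ (683 bases in MV4-11 NC and 0 in Kasumi-1 NC) and MEIS1 (3337 and 3103) went the other way. Peaks were wider in general in Kasumi-1 NC, with a mean of 1437 bases against 1138 in MV4-11 NC. More protein-coding genes had a promoter peak there, 9541 against 7158. H3K27ac at the ANP32B promoter does not measure the knockdown, which acts on the transcript, so the lists hold no check of it.

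The knockdown difference was examined next by genomic position. Promoters of protein-coding genes had 7189 peaks in NC and 5967 in sh-ANP32B, a ratio of 0.83 (0.802 to 0.859) for peaks and 0.73 for covered bases. Introns had ratios of 0.927 (0.9 to 0.954) and 0.856, and the space between coding genes 0.957 (0.922 to 0.994) and 0.904. Promoters of long noncoding RNA genes (lncRNAs) lay between these, with 0.876 (0.814 to 0.942) and 0.832. The share of NC peaks that were lost differed less by position, at 28.3% in coding promoters, 30.4% in introns and 28.1% between genes. The share of sh-ANP32B peaks that were gained was 9.1% (8.4 to 9.86) in coding promoters, 20.8% (20 to 21.7) in introns and 22.1% (21.0 to 23.2) between genes. Promoters and other regions thus lost similar shares of their peaks, and promoters acquired a lower share of new ones. In Kasumi-1 the ratio of peak number was 0.99 at coding promoters and 1.1 in introns. The gained share was lower at coding promoters in that line too, at 4.64% against 20.2% in introns and 17.7% between genes.

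Among promoters, the ratio of peak number was lowest for peaks that lay over the start itself, although their lost share was the lowest. In NC, 4202 peaks covered a coding start, and in sh-ANP32B 2934 did, a ratio of 0.698, with 19.1% lost. Peaks with their nearest edge at least 1 and under 1000 bases from a start numbered 2007 in NC and 2069 in sh-ANP32B, a ratio of 1.03, with 44.9% of these NC peaks lost, and for those 1000 to under 2500 bases away the lost share was 33.7%. Counted by gene, the position 200 bases downstream of the start was under a peak at 27.3% of protein-coding genes in NC and 19.8% in sh-ANP32B. At 100 bases upstream the shares were 21.1% and 14.4%, a ratio of 0.685, and at 5000 bases to either side the ratios were 0.814 and 0.807. Of 3942 genes that had a promoter peak in both libraries and their start under a peak in NC, 932 (23.6%) no longer had the start under a peak in sh-ANP32B. In the opposite direction, 202 of 1473 (13.7%) kept genes with no NC peak over the start had one in sh-ANP32B. The share without the start was 24.9% at starts rich in CpG, 22.9% at intermediate and 17.5% at CpG-poor starts. The corresponding shares in Kasumi-1 were 17.6%, 7.4% and 3.42%. Its own ratio at the start was 0.852, with values near or above 1 beyond 1000 bases.

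**Figure D1:**
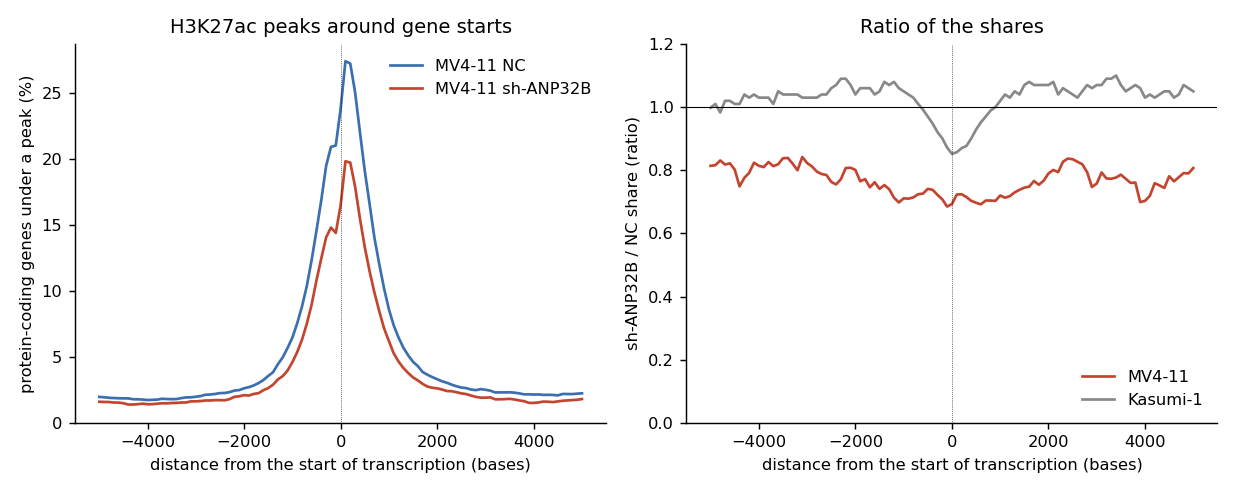
Share of protein-coding genes (%, left) with a peak at each distance in bases from the start of transcription in MV4-11 NC (blue) and sh-ANP32B (red), and the sh-ANP32B to NC ratio of these shares (right) in MV4-11 (red) and Kasumi-1 (grey). The sh-ANP32B line lies under the NC line at every distance drawn, and the MV4-11 ratio is 0.693 at the start against 0.852 in Kasumi-1.

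The edges of promoter peaks moved towards the start on both sides. At 1864 peaks that lay over a single start in both libraries and were matched 1 to 1, the median reach upstream was 530 bases in NC and 429 in sh-ANP32B, and the median reach downstream was 742 and 609 bases. The upstream edge was closer to the start in sh-ANP32B at 67.9% (65.8 to 70) of these peaks and the downstream edge at 68.1% (66 to 70.2). The median changes per peak were -43 bases upstream and -56 bases downstream, against 8 and 6 bases at 4385 such peaks of Kasumi-1. Over all 15348 matched pairs of MV4-11 peaks, the median change of width was -94 bases. It was -164 bases at coding promoters, where 74.2% were narrower, -72 bases in introns (60% narrower) and -42 bases between genes (55.7% narrower). A width of 50% or less of the NC width was seen at 12.5% of matched coding promoter peaks, and a doubled width or more at 1.28%. In addition, 1179 NC peaks (4.81%), with a median width of 2586 bases, each overlapped several sh-ANP32B peaks, up to 5, and 458 sh-ANP32B peaks each overlapped several NC peaks.

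Width in NC went with whether a peak was lost. Among coding promoter peaks under 500 bases, 63.0% (60.5 to 65.5) were lost, against 35.7% of those of 500 to under 1000 bases, 8.89% of 1000 to under 2000, 0.719% of 2000 to under 4000 and 0 of 137 of at least 4000 bases (Wilson upper bound 2.73%). Outside promoters the shares were 60.6%, 31.0%, 7.79% and 1.21% in the same order, and 1 of 422 peaks of at least 4000 bases was lost. At equal width, promoter and other peaks were therefore lost at rates that differed by less than 5 percentage points. Gains differed more, since 45.4% (44 to 46.7) of sh-ANP32B peaks under 500 bases outside promoters were gained and 22.7% (20.8 to 24.8) of those in promoters. Loss was also more frequent among NC peaks found in neither Kasumi-1 list, at 50.3% of 459 in promoters and 40.9% of 7268 elsewhere. Among NC peaks found in both Kasumi-1 lists it was 25.6% of 6434 and 19.4% of 8928. The median widths of these 4 classes were 506, 573, 970 and 1095 bases, in that order. An isolated NC peak, with no other NC peak within 12500 bases, was lost in 31.7% of cases and one with a neighbour within 2000 bases in 26.7%. The depth of the libraries is unknown, and its part in these width differences was not tested.

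**Figure D2:**
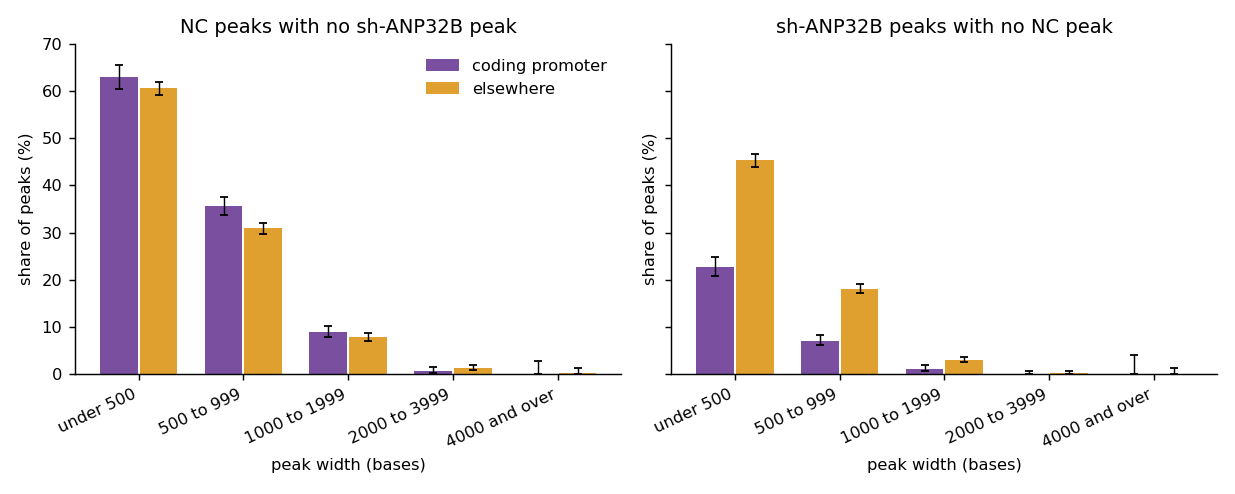
Share (%) of MV4-11 NC peaks without a sh-ANP32B peak (left) and of sh-ANP32B peaks without an NC peak (right) by peak width in bases, for peaks in coding promoters (purple) and elsewhere (orange), with Wilson 95% intervals. Losses go from over 60% under 500 bases to 0 of 137 promoter peaks of at least 4000 bases, and gains under 500 bases are 45.4% elsewhere and 22.7% in promoters.

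Sequence letters distinguished lost from kept peaks outside coding promoters. The letters of 15 motifs were searched on both strands in 500 bases around each peak centre, and AP-1 (TGANTCA, the site of FOS and JUN family dimers) showed the largest difference between lost and kept peaks. It was present in 17.7% of 5088 lost NC peaks, 25.9% of 12214 kept NC peaks and 28.4% of 3361 gained sh-ANP32B peaks, against 23.5% of all 17302 NC peaks. Among peaks of 400 to under 800 bases alone the shares were 17.9%, 28.1% and 31.3%, and the median GC content was 47.2%, 46.8% and 47.6%. Loss was graded by the number of matches. NC peaks with 0 matches were lost in 31.6% (30.8 to 32.4) of cases, those with 1 match in 23.6% (22.2 to 25) and those with 2 or more in 15% (12.4 to 17.9). In the class of 500 to under 1000 bases the shares were 34.6%, 22.1% and 12.5%. The number of peaks without a match went from 13240 to 11908, with 1 match from 3427 to 3504 and with 2 or more from 635 to 733. In Kasumi-1 the lost shares were 9.58%, 9.21% and 9.67%, and the difference between the lines in this gradient was not tested.

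Smaller differences between lost and kept peaks were seen for the other motifs in these regions. Lost peaks outside coding promoters held the ETS letters (GAGGAAGT, the site of PU.1 and its relatives) in 6.8% and kept peaks in 8.37%, and the RUNX letters in 12.5% and 14.3%. The C/EBP letters were found in 27.3% of lost, 29.4% of kept and 24.9% of gained peaks, the largest deficit of gained against kept peaks in percentage points among the 15 motifs. Among coding promoter peaks of 400 to under 800 bases, 6.43% of lost, 11.1% of kept and 14.8% of gained peaks held the AP-1 letters. The GC-box letters (GGGCGG, the site of SP and KLF factors) were in 70.1%, 61.7% and 48.7% of these peaks. By gene, the GC-box letters were in the RefSeq promoters of 72.9% of 1396 lost, 68.9% of 4340 kept and 73.0% of 259 gained genes. Only genes with a matched RefSeq promoter were counted. The lower GC-box share of gained peaks was thus not seen by gene, where promoter sequences rather than peak centres were searched. The AP-1 shares by gene were 3.15%, 4.77% and 5.41%, which rose from lost to gained as they did by peak. The AP-1 letters can overlap those of HOX (TGATTNAT), which was searched too, and the ETS letters share GGAAGT with another ETS form (CCGGAAGT) that was searched separately.

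**Figure D3:**
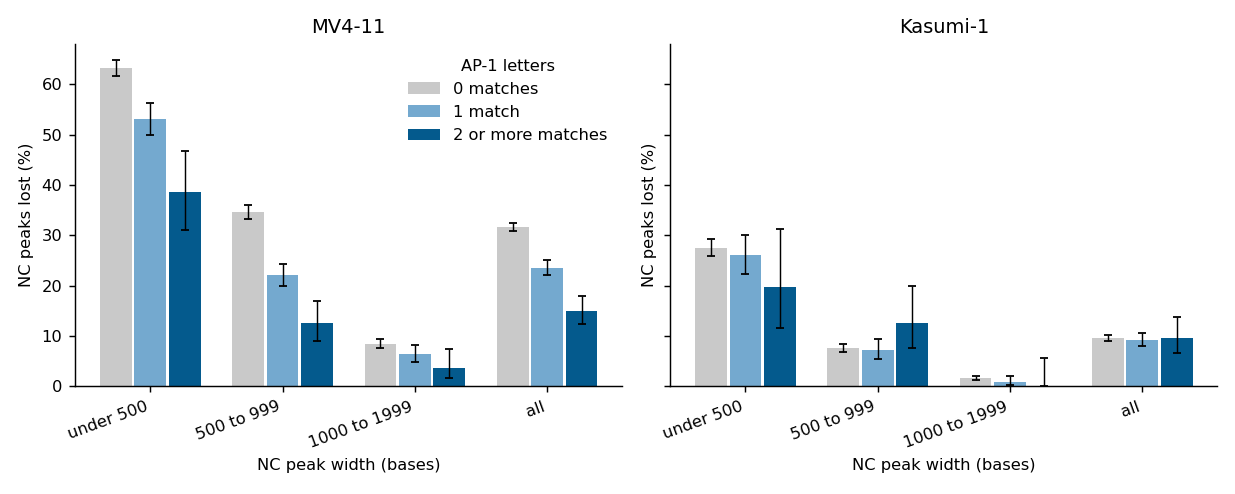
Share (%) of NC peaks outside coding promoters that were lost, by peak width in bases and by the number of AP-1 matches in the central 500 bases (0 grey, 1 light blue, 2 or more dark blue), with Wilson 95% intervals, for MV4-11 (left) and Kasumi-1 (right). Over all widths the MV4-11 bars are 31.6%, 23.6% and 15%, and the Kasumi-1 bars lie between 9.21% and 9.67%.

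At the level of genes, 7158 of 19970 protein-coding genes had a promoter peak in NC and 5730 in sh-ANP32B. The promoter peak was lost at 1743 genes (24.4% of those marked in NC) and gained at 315 genes (2.46% of those unmarked in NC). Of 5415 genes marked in both, 4095 (75.6%) had fewer bases under promoter peaks in sh-ANP32B and 1294 had more. The median change over the genes marked in NC was -339.5 bases. These values are the background for the gene lists below, whose members are described by counts alone. The lost share was 24.6% at CpG-rich, 25.7% at intermediate and 18.5% at CpG-poor starts, and 20.9% of 3155 lncRNA genes marked in NC.

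Among targets of KMT2A fusion proteins, the genes that such fusions keep active in leukemia, 3 of 15 marked genes lost their peak and 10 of the 12 kept had fewer bases, with a median change of -455 bases. A peak was gained at 3 of the 13 unmarked members, against 2.46% over all genes, so that 15 members were marked in each library. In a window of 1000 bases to each side, 1 of 13 marked members was lost. MYB, a transcription factor of progenitor cells, had 3278 bases under promoter peaks in NC and 2183 in sh-ANP32B. ARID1B, a subunit of the SWI/SNF remodelling complex, went from 2274 to 729 bases, and IGF2BP3, an RNA-binding protein, from 2367 to 1045. CPEB2, a regulator of translation, went from 344 to 1098 bases. CDK6, a kinase of the G1 phase, had 455 bases in NC and 0 in sh-ANP32B, but 1 of its NC peaks, of 1745 bases, reached into the window from outside and overlapped a sh-ANP32B peak there, and in the window of 1000 bases it had none in either library. The HOXA cluster, which specifies progenitor identity, had small peaks at the members named here. HOXA3 had 543 bases in NC only, HOXA7 418 bases in sh-ANP32B only, and HOXA9 769 and 659 bases. In Kasumi-1 NC, 1 peak of 12427 bases covered the HOXA7 promoter. MYC, the growth regulator, had 893 bases in NC only.

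Among transcription factors of the myeloid lineage, the peak was lost at 1 of 17 marked genes (5.88%, 1.05 to 27), an interval that includes the background of 24.4%. These genes had a median of 2374 bases under NC promoter peaks, against 1046 over all marked genes, and a median change of -407 bases. The gene lost was CEBPA, the factor of granulocyte commitment, whose 1722 bases in NC had no counterpart in sh-ANP32B. They came from peaks of 967 and 755 bases, and the promoter printed above lies in the second of these. IKZF1, a lymphoid and myeloid regulator, went from 2374 to 1427 bases. STAT5A, which acts downstream of FLT3, went from 385 to 1231 bases.

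Among markers of monocytes and granulocytes, 6 of 20 marked genes lost their peak. CSF3R, the receptor of granulocyte colony-stimulating factor, had 1321 bases in NC and 0 in sh-ANP32B, and TLR2, a receptor for bacterial lipoproteins, had 611 and none. SIRPA, an inhibitory receptor of myeloid cells, went from 4098 to 3198 bases in the window of 2500 bases, but from 1720 to 1817 in a window of 1000 bases. ITGAX, the integrin CD11c of monocytes and dendritic cells, went from 912 to 1398 bases and CSF2RB, the shared receptor chain for GM-CSF, from 783 to 1177.

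Response genes of FLT3, STAT5 and ERK signalling had 7 of 22 marked genes lost (31.8%; 3 of 18 in a window of 1000 bases, which is below the background) and 12 of the 15 kept with fewer bases, with a median change of -438 bases. PIM2, a survival kinase induced by STAT5, went from 936 bases to none, and ETV4, an ETS factor induced by ERK, from 820 to none. SPRED2, a feedback inhibitor of the RAS pathway, went from 2542 to 1369 bases and EGR1, an immediate early factor, from 1628 to 709. OSM, a cytokine gene induced by STAT5, had 1712 and 1956 bases.

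The NF-kappaB genes had the highest median change of the 17 lists. None of 15 marked genes lost its peak, 9 of the 15 had more bases in sh-ANP32B and 6 fewer, against 75.6% fewer over all genes, and the median change was 23 bases. These genes had a median of 1558 bases under NC promoter peaks, against 1046 over all marked genes. The part of this difference in the lost share was not tested. NFKB2, the subunit p100/p52, went from 1479 to 2398 bases and TRAF1, an adaptor of TNF receptors, from 716 to 1382. TNFAIP2, a TNF-induced gene, went from 4056 to 2548 bases and NFKBIZ, a nuclear regulator of the pathway, from 1471 to 815. Bases under peaks within 50 kb of the start and outside the promoter window were also counted. This measure, used again below, was added after the data had been seen. Such bases were 0.951 times those of NC over this list and 0.801 times over all genes. Of 19 NF-kappaB genes with such bases, 10 had more in sh-ANP32B, against 23.1% of all genes. The ratio was not particular to this list. It was 0.949 for the AP-1 family, 0.976 for the BCL2 family and 0.971 for olfactory receptors, and as low as 0.587 for the ANP32 and INHAT genes.

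Among the AP-1 genes themselves, 1 of 11 marked genes was lost (9.09%, 1.62 to 37.7), an interval that includes the background of 24.4%. Of the 10 kept, 6 had fewer bases, against 75.6% over all genes, and the median change was -112 bases. The list had a median of 2176 bases under NC promoter peaks, against 1046 over all marked genes. The part of this difference in the lost share was not tested. MAFK, a small MAF protein, went from 899 bases to none, BATF, a partner of JUN, from 1626 to 751 and FOSL1, a FOS relative, from 1219 to 506. FOSL2, another FOS relative, had 2844 and 3067 bases. FOS itself had 2356 and 2665 bases in the window of 2500 bases, but 1751 and 1575 in the window of 1000 bases.

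Genes of histone acetylation lost promoter peaks at shares near or below the background of 24.4%. Among histone acetyltransferases and their partners, 2 of 14 marked genes (14.3%) were lost, with a median change of -667 bases. All 12 kept had fewer bases, against 75.6% of those kept over all genes. KAT6B went from 1457 to 352 bases and KAT6A, its paralog, from 1800 to 365, while HAT1, which acetylates newly made histone H4, went from 1014 to none. Among deacetylases and their corepressors, 3 of 14 (21.4%) were lost, with a median change of -451.5 bases. HDAC1, the catalytic subunit of several corepressor complexes, went from 1021 bases to none and HDAC7 from 936 to none. SIRT7, a sirtuin of the nucleolus, had 2705 and 3035 bases. Among readers of acetylation and elongation factors, 5 of 20 (25%) were lost, and of the 15 kept 9 had fewer bases and 6 more. CDK9, the kinase of P-TEFb, went from 2319 to 893 bases, CCNT1, its cyclin, from 1207 to 303 and CDK8, the mediator kinase, from 1235 to none. The mediator subunits MED12 and MED1 had more bases, with 410 and 677 at MED12 and 1343 and 1517 at MED1.

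The ANP32 and INHAT genes marked in NC all kept a peak in the window of 2500 bases, and all 6 marked members had fewer bases, with a median change of -693.5 bases. Over all genes, 24.4% of those marked were lost and 75.6% of those kept had fewer bases. The Wilson interval of the lost share at the 6 members, 0 to 39%, includes 24.4%. These members had a median of 3177 bases under NC promoter peaks, against 1046 over all marked genes. The part of this difference in the lost share and the median change was not tested. ANP32B had 3433 bases in NC and 2631 in sh-ANP32B, and ANP32A, its relative, 3870 and 2962. XPO1, the exportin that binds ANP32 proteins, went from 1418 to 335 bases, and from 627 to 0 in the window of 1000 bases. Around these genes, outside the promoter windows and within 50 kb, covered bases were 0.587 times those of NC and 0 of 6 genes had more. Over all genes the ratio was 0.801 and 23.1% had more.

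MYC targets and cell cycle genes lost promoter peaks at shares near the background. Of 52 marked MYC targets, 14 were lost, with a median change of -345 bases. MRTO4, a ribosome assembly factor, went from 1331 bases to none, NOP58, a core nucleolar protein, from 2217 to 926 and SRM, spermidine synthase, from 2436 to 1377. PES1, another ribosome assembly factor, went from 378 to 964 bases. Of 38 marked cell cycle genes, 9 were lost and all 29 kept had fewer bases, against 75.6% of those kept over all genes. E2F1 went from 1043 bases to none, MYBL2 from 1224 to none and CDT1, a replication licensing factor, from 2573 to 1453. In the BCL2 family, 3 of 11 were lost and 4 of the 8 kept had more bases. MCL1 went from 1652 to 773 bases and BCL2A1 from 818 to none, both inhibitors of apoptosis, and BCL2L1, which encodes BCL-XL, from 994 to 1231.

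Of interferon-stimulated genes, 32.4% were marked in NC, against 35.8% of all protein-coding genes, and 3 of these 11 were lost, including IFITM2 (993 bases to none) and IRF1 (610 to none), and IFIH1, a sensor of viral RNA, went from 2387 to 1461 bases. Of 6 marked genes of antigen presentation by MHC, 1 was lost, NLRC5, and B2M, the light chain of MHC class I, went from 1647 to 1075 bases. TAPBP, which loads peptide onto MHC class I, went from 301 to 788 bases. The lymphoid and erythroid list had 4 marked genes, of which TFRC, the transferrin receptor, went from 1110 bases to none.

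Gene families selected by symbol differed widely in the share lost. Cytosolic ribosomal protein genes lost 7 of 78 promoter peaks (8.97%, 4.42 to 17.4) and mitochondrial ribosomal protein genes 20 of 55 (36.4%, 24.9 to 49.6), with median changes of -257.5 and -352 bases. Replication-dependent histone genes lost 2 of 48, splicing factors 6 of 57 (10.5%, 4.91 to 21.1) and subunits of the respiratory chain and ATP synthase 9 of 66. Zinc finger ZNF genes lost 53 of 162 (32.7%, 26.0 to 40.3). Proteasome subunits lost 3 of 32, and of the 29 kept 14 had more bases and 14 fewer, with a median change of -7.5 bases. Solute carriers lost 26 of 107 (24.3%) and chaperones 10 of 43. The median bases under NC promoter peaks were 2819.5 for the histone genes, 1484 for splicing factors and 1384 for cytosolic ribosomal protein genes, against 902 for mitochondrial ribosomal protein genes and 863.5 for ZNF genes, and the part of this difference in the lost shares was not tested. Clustered histone genes share neighbouring windows, so their members are not independent.

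**Figure D4:**
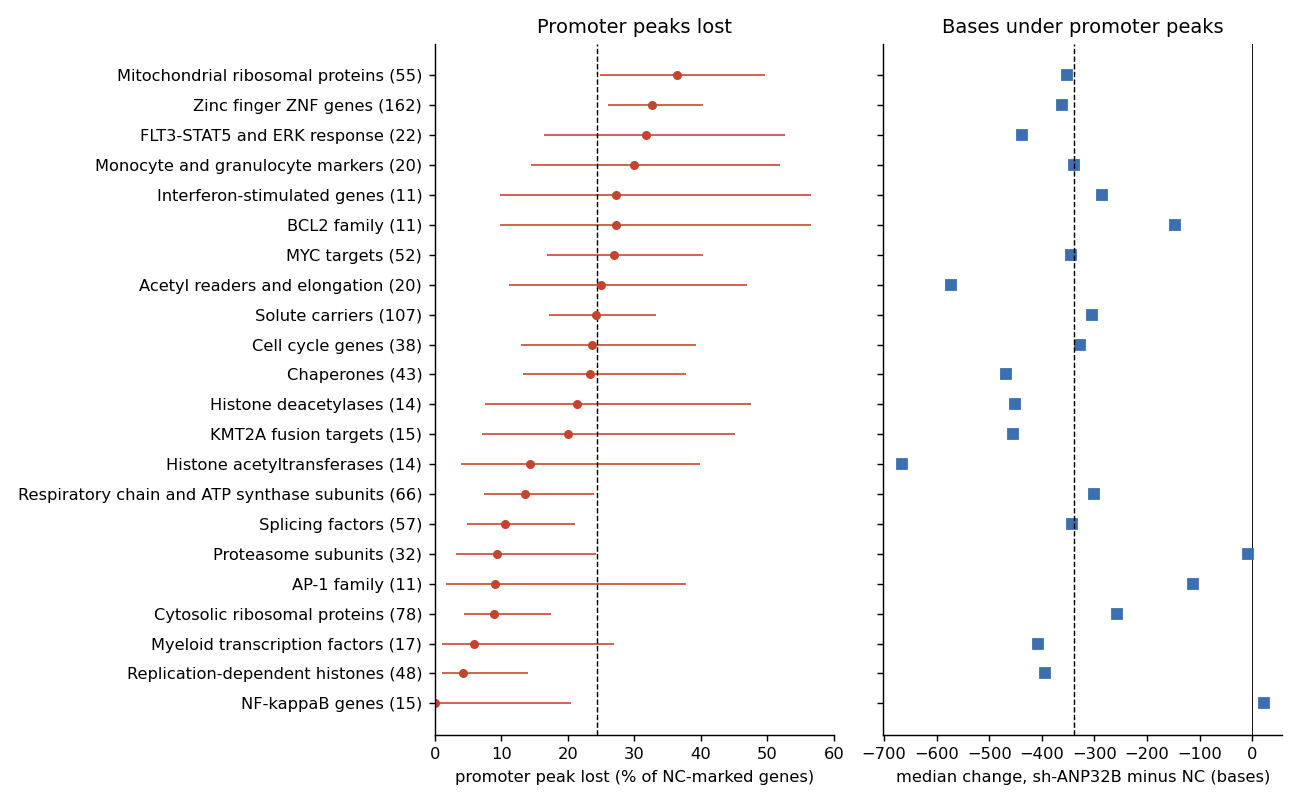
Share (%) of genes marked in NC whose promoter peak was lost in MV4-11 sh-ANP32B, with Wilson 95% intervals (left), and the median change of bases under promoter peaks (right) for lists with at least 10 marked genes (number in parentheses). Dashed lines give the values over all genes, 24.4% and -339.5 bases, and the NF-kappaB list lies at 0 lost and a median of 23 bases.

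The widest single losses and gains were named by rank. The widest lost peaks outside promoters lay in exon 3 of NACA (4016 bases, chr12:56716122-56720137), intron 5 of TTYH3 (3995 bases), intron 4 of MRTFA (3317 bases), intron 1 of RRP1B (3226 bases) and intron 1 of ROR2 (2871 bases, chr9:91897835-91900705). MRTFA encodes a coactivator of serum response factor that is regulated by actin. All of the 5 overlapped peaks in both Kasumi-1 libraries. The nearest sh-ANP32B peak was 309 bases away at TTYH3, 420 at RRP1B and 870 at NACA, but 9511 bases at MRTFA and 49241 at ROR2. The widest gained peaks outside promoters were narrower, and 4 of the 5 widest are given. They lay 218430 bases from HLX, a homeobox gene of hematopoiesis (2586 bases), in RALGDS, an effector of RAS (2381 bases), in intron 16 of IL16, a cytokine gene (1958 bases), and 317218 bases from CLIC5 (1912 bases). The CLIC5 peak overlapped no Kasumi-1 peak.

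In promoters, the widest lost peak lay over the start of NUCB2 (2771 bases). The next widest lay within 839 bases of the starts of NOL4L (2641 bases), DLEU7 (2113 bases), FURIN (2041 bases) and KCNK5 (2015 bases). FURIN is a proprotein convertase and KCNK5 a potassium channel. Of the 5 widest gained promoter peaks, those at CAMKK1 (1653 bases) and CCRL2 (1373 bases) lay over the start. Those nearest to CFAP58 (1583 bases), CAMKV (1299 bases) and RAB22A (1228 bases) lay near the window's edge. They were 2413, 2368 and 2221 bases from the start. CCRL2 is a receptor for chemerin on activated leukocytes, and its peak overlapped none in Kasumi-1. The widest peaks of both lists were kept. The widest lay at ZEB2, a transcription factor of the myeloid lineage, with 14172 bases in NC and 14580 in sh-ANP32B, and intron 2 of RXRA, a nuclear receptor, had peaks of 12665 and 12025 bases.

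Regions outside coding promoters were then compared as loci, by joining peaks of either list at most 12500 bases apart after removal of coding promoter windows. This summary was added after the data had been seen. Of 3135 loci with at least 2000 bases in either library, 2066 had fewer bases in sh-ANP32B and 1068 (34.1%) had more, with a median change of -450 bases. The bases were at or below 50% of NC at 336 loci and at least doubled at 101. The loci with the most bases lost were a region over MAD1L1, a mitotic checkpoint gene, with 34869 bases in NC and 22660 in sh-ANP32B, and the locus of CD69, an early activation antigen of leukocytes, with 29014 and 18913. NACC2 followed with 31134 and 21595. The MRTFA locus, which includes the lost peak printed above, went from 7348 to 587 bases, whereas it had 9361 and 11983 bases in Kasumi-1.

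Loci with more bases in sh-ANP32B stood against the lower total. The largest change was in ZMIZ1, upstream of PPIF, from 44358 to 55664 bases (42096 and 41710 in Kasumi-1). The locus over ITGB2, the integrin chain shared by leukocyte adhesion receptors, and PTTG1IP went from 21629 to 26981 bases. A region 55511 bases from the start of CD44, an adhesion receptor for hyaluronan, went from 6379 to 11274 bases, PTPRE, a phosphatase, from 7731 to 12258, and SLC2A1, the glucose transporter GLUT1, from 5885 to 9425. A locus 88439 bases from the start of CXCR4, the receptor that holds leukemia cells in the marrow, went from 16361 to 19674 bases.

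**Figure D5:**
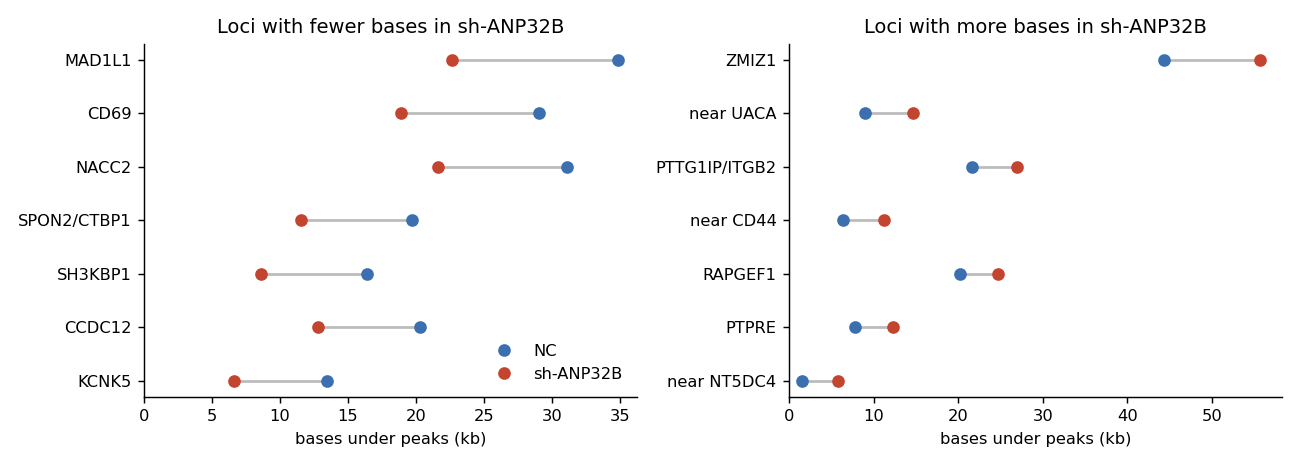
Bases under H3K27ac peaks (kb) in MV4-11 NC (blue) and sh-ANP32B (red) at the 7 loci outside coding promoters with the most bases lost (left) and the 7 with the most gained (right), named by the genes they lie over or near. MAD1L1 goes from 34869 to 22660 bases and ZMIZ1 from 44358 to 55664 bases.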

How the data were processed

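H3K27ac CUT&Tag libraries of MV4-11 NC and MV4-11 sh-ANP32B were compared, with the Kasumi-1 pair beside them. IgG libraries are not analysed here. Per the study's methods, reads were aligned to hg38 with Bowtie2, duplicates were removed with Picard, replicates were merged and peaks were called with MACS2 at a q-value of 0.01. The submitters' processing notes instead name Bowtie2 2.4.4 and MACS3 3.0, and it was not settled which made the files. The use of IgG as a control for calling is not given in the sources used here. The deposited lists hold only positions and the length in bases of each peak, as the authors called them. They give no heights or read totals, so depth is unknown. The smallest peak had 289 bases in NC and 275 in sh-ANP32B, so the caller's limits differed between them.

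Peaks on other sequences (886 in NC and 787 in sh-ANP32B) were left out. Overlap of 1 base counted as shared. Matched peaks overlap 1 peak each way. Positions and promoter windows (2500 bases before to 2500 bases after the canonical start) were from GENCODE release 44. CpG-rich starts had an observed to expected ratio of at least 0.75 and a GC content of at least 55% in 500 bases to each side, and CpG-poor starts a ratio under 0.48. Gene lists (17), families by symbol (12) and motifs (15) were written by hand. In the interferon list 34 of 35 symbols matched. The members and lists were chosen with earlier results of these data known. Named genes were ANP32B, ANP32A, MYC, the members of each list with the largest changes or widest lost peaks, and the genes at the widest lost, gained and overall peaks. Intervals are 95%. Python 3.11.15 and pysam 0.24.0 were used, and the overlap functions were tested on simulated lists. Joining of peaks, a common width limit, a width minimum, stricter overlap and smaller windows were tried as alternatives. The alternatives' effects are given in the closing section. Some genes, 1 gene list and some sequences are not reported here.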

Additional observations from a re-analysis of the deposited data

Results flagged for a closer look

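The direction of the change differed between the lines, and this difference was not tested because each line had 1 library in each group. The ratio of peak number, sh-ANP32B to NC, was 0.903 in MV4-11 and 1.05 in Kasumi-1. The ratio of covered length was 0.825 in MV4-11 and 1.03 in Kasumi-1. The median width change of matched peaks was -94 bases in MV4-11 and 25 bases in Kasumi-1.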

How the results depend on the processing

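The direction of the ratios, of the width change and of the excess of lost over gained peaks was the same in every alternative run. With peaks of at least 1000 bases only, the ratio of peak number was 0.8 and of covered length 0.774, and with a common minimum width of 289 bases and joining gap of 290 bases the ratio of peak number was 0.877. Lost NC peaks were 45.4% and gained sh-ANP32B peaks 39.6% when 50% of each peak had to overlap. They were 29.8% and 16.9% with the common limits and 27.1% and 16.6% after peaks up to 1000 bases apart were joined, which also gave a median width change of -109 bases. When peaks under 1000 bases were not themselves scored but could serve as partners, 5.78% were lost and 1.77% gained. The lost share of genes was 25.7% with a promoter window of 1000 bases. Of the 1743 lost genes, 19 (1.09%) had an NC peak that met a sh-ANP32B peak beyond the window, a count added after the data had been seen. With promoter peaks of at least 1000 bases, 6.29% of genes were lost and 0.148% gained, so most gene calls rest on narrower peaks. In the smaller window the change of bases turned sign at SIRPA (97), FOS (-176) and SIN3A (-36). Of the other named genes 16 moved by more than 50% of their value, and changes with more than a 1.5-fold move among the genes described were -319 at ANP32B, -755 at CEBPA, -954 at ARID1B, -582 at IKZF1, 545 at STAT5A, -386 at EGR1, -341 at KAT6B, -441 at SRM, -598 at CDT1, -536 at TNFAIP2, 364 at TRAF1, -540 at IFIH1, -627 at XPO1, -198 at B2M, 166 at SIRT7, 8 at FOSL2, 64 at CD79A, 84 at MED1 and 0 at HOXA7, CDK6 and KLF1. The median changed sign in none of the 29 lists and families, and by more than 50% of its size in 6. With 200 bases around peak centres the AP-1 shares outside coding promoters were 7.74% of lost, 11.9% of kept and 12.9% of gained peaks. Depth, which limits the detection of narrow peaks, is unknown, and its part was not tested. No paired analysis was possible because each group has 1 merged library.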

Other observations

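Some loci outside the lists, chosen after their values were seen, showed changes that differed in direction or in size from those of Kasumi-1. The locus over SH3KBP1, an adaptor of receptor endocytosis, had 16384 bases under peaks in MV4-11 NC and 8600 in sh-ANP32B, and 9433 and 11289 in Kasumi-1. The locus near NT5DC4 had 1527 and 5813 bases in MV4-11 and 2108 and 2082 in Kasumi-1. An intergenic locus 253487 bases from UACA had more bases in sh-ANP32B in both lines, with 8939 and 14697 in MV4-11 and 11633 and 14030 in Kasumi-1. Outside promoter windows and within 50 kb of the start, covered bases near potassium channel genes were 0.691 times those of NC. Near olfactory receptor genes, of which 3 of 400 had a promoter peak in NC, the ratio was 0.971. Over all genes it was 0.801, and histone acetyltransferases (0.697) and chaperones (0.698) had values close to that of potassium channels.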
